A study of Papio anubis with 12 samples.

Results

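Each of 12 arrays carried control RNAs of bacterial and phage genes that were added in the laboratory, and the 12 arrays were divided here by the signal of those controls. For each array, the log2 signals of 9 probe sets for the E. coli genes bioB, bioC and bioD and for cre of bacteriophage P1 were averaged. The 6 arrays with the highest mean were set against the 6 with the lowest, so the division uses all 12 arrays of the study. These groups were made from measured values and are not groups of the study, and the spike-in values are given below as a description without a test. The arrays (Affymetrix HG-U133 Plus 2.0) measured RNA of the precentral gyrus, the primary motor area of the cerebral cortex, from 12 baboon neonates, with 1 array per animal. The animals were Papio anubis, were fed for 12 weeks and were 83 to 87 days old. Formula C had no docosahexaenoic acid (DHA) and no arachidonic acid (ARA), formula L had 0.33% DHA with 0.67% ARA, and formula L3 had 1.00% DHA with 0.67% ARA. Each formula was given to 4 animals. The high spike-in arrays held 2 animals fed C, 1 fed L and 3 fed L3, with 1 male, at 83 to 85 days. The low spike-in arrays held 2 animals fed C, 3 fed L and 1 fed L3, with 2 males, at 84 to 87 days. Formula was therefore a covariate in the limma fit of all probe sets, while the exact tests of the control ratios below do not hold it.

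The control RNAs are labelled fragments that go onto every array in set amounts with the labelled tissue RNA. An array scaled to a common mean reads them relative to the tissue RNA that it carries. RNA of the tissue was copied from an oligo-dT primer, which starts at the poly(A) tail. Where transcripts are broken or copied short, the part near the tail is still measured and the part far from it is lost. Arrays therefore carry separate probe sets for the 5' end, the middle and the 3' end of a few long-known transcripts, among them ACTB (β-actin) and GAPDH (a glycolysis enzyme). The ratio of the 3' to the 5' signal is the customary measure of RNA integrity on these arrays. Identifiers that end in _at mark probe sets of 1 transcript, those in _s_at match several transcripts, often of 1 gene, and those in _x_at hold probes that can bind unrelated transcripts. The probes were designed for human transcripts, and the baboon sequences under them were not at hand.

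The mean log2 spike-in signal of the high arrays was 12.56 in C replicate 1, 13.10 in C replicate 2, 13.34 in L3 replicate 1, 13.39 in L replicate 1, 13.64 in L3 replicate 2 and 13.92 in L3 replicate 3. That of the low arrays was 11.04 in L replicate 4, 11.21 in L3 replicate 4, 11.46 in L replicate 3, 11.47 in C replicate 4, 12.04 in L replicate 2 and 12.29 in C replicate 3. The arrays next to the dividing line were C replicate 1 on the high side and C replicate 3 on the low side, and they stood closer to each other than to the middle of their own groups. The signal of cre, the strongest control, ran from 51582 to 129581 in the high arrays and from 17387 to 31872 in the low arrays. The signal of bioB, the weakest, ran from 1476 to 3491 and from 377 to 1044. Only bioD overlapped between the groups, at 13050 to 35197 against 6641 to 15310. By formula, the mean log2 spike-in signal was 12.36 ± 0.68 for C, 11.98 ± 1.02 for L and 13.03 ± 1.23 for L3 (SD over 4 arrays each).

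ACTB had far less 5' signal in the high spike-in arrays. The 5' segment of ACTB gave signals of 108.7 to 2092 (median 1220.4) in the high arrays and of 5150 to 14814 (median 11668) in the low arrays. Its middle segment gave 1621 to 6245 (median 4472) and 16054 to 20576 (median 17567). Its 3' segment gave 6029 to 11648 (median 7745) and 12105 to 18740 (median 13806). None of the 3 segments overlapped between the groups, and the gap was widest at the 5' end. The log2 ratio of 3' to 5' signal was 3.35 ± 1.53 in the high arrays and 0.55 ± 0.84 in the low arrays (SD, n = 6 each), a difference of 2.80 (exact two-sided permutation test, p = 0.00216, Benjamini-Hochberg over 3 ratios 0.00649). This p is the smallest that divisions of 12 arrays into 6 and 6 can give. The linear ratio ran from 3.65 in L3 replicate 3 to 72.3 in L3 replicate 1 among the high arrays, and from 0.904 in L replicate 4 to 3.64 in C replicate 3 among the low arrays, so the groups were separated by a narrow margin.

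GAPDH went the same way with a smaller difference. Its 5' segment gave 755 to 4291 (median 2179) in the high arrays and 7127 to 10040 (median 8811) in the low arrays, and its 3' segment 6211 to 13031 (median 9813) and 14864 to 23411 (median 16625). Here too the segments did not overlap. The log2 ratio of 3' to 5' signal was 2.37 ± 0.82 and 1.04 ± 0.42 (SD, n = 6 each), a difference of 1.33 (exact permutation p = 0.0108, adjusted 0.0162), and the ratios of the groups overlapped.

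**Figure D1:**
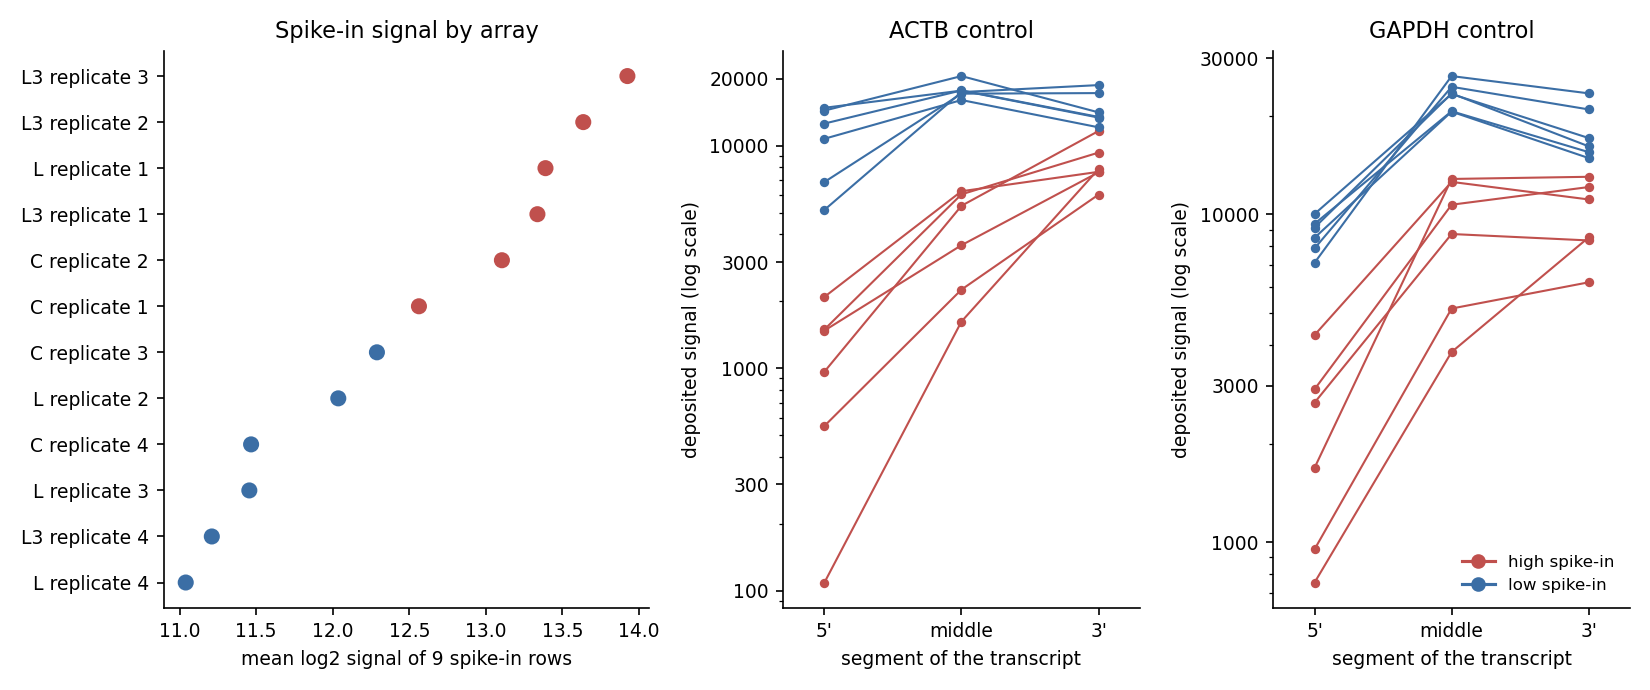
The left panel gives the mean log2 spike-in signal of each array, which chose the groups, and the other panels join the signals of the segments of ACTB and GAPDH on a log axis, with 1 line per array. In the high spike-in arrays the ACTB 5' segment lies between 108.7 and 2092, under all 6 low spike-in arrays, which lie between 5150 and 14814.

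The spread of signals within an array also differed. The median signal over all probe sets was 149.9 to 174 in the high arrays and 108.8 to 133.2 in the low arrays. The 99th percentile was 2203 to 3348 and 3656 to 5120, and the share of probe sets under a signal of 50 was 22.8% to 26.9% and 27.7% to 32.0%. The high spike-in arrays thus had fewer very bright and fewer very dim probe sets, at the same trimmed mean. Further quantile normalization removes this difference in shape, and the scale on which genes are compared decides part of what follows.

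Of 54613 probe sets, 3017 (5.52%) differed between the groups at an adjusted p under 0.05 in the limma fit with formula as covariate. Of these, 1065 (1.95%) were higher and 1952 (3.57%) were lower in the high spike-in arrays. The median log2 difference was 1.48 among those higher and −1.76 among those lower, against 0.05 over all probe sets, and the median SE of a difference was 0.43. At an unadjusted p under 0.05 there were 11467 (21.0%), of which 5309 were higher and 6158 lower. On the quantile normalized scale, every high array lay above every low array in 1086 probe sets and below in 1458. For single genes below, ranges and their overlap are of deposited signals, while differences and calls are on the normalized scale. Without the lone high array fed L (L replicate 1), 207 were called higher and 390 lower. The counts also fell by more than 1.5 times without L3 replicate 4 (508 and 1112), without C replicate 4 (553 and 1093) and without L replicate 4 (669 and 1267), and the count of higher calls without C replicate 2 (696).

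The scale changed the counts of calls in both directions. With the deposited signals taken as they were, without quantile normalization, the median of all differences was 0.27 and 2580 probe sets were called higher and 2918 lower. With each array centred on its median, the median of all was −0.12 and 812 were called higher and 6152 lower. The share of lower calls was 64.7% with quantile normalization, 53.1% without and 88.3% with centring. Of the 1952 lower calls, 1732 were also called lower on both other scales and none had the opposite sign on either. Centring lowered every difference by the same amount from its value without quantile normalization. The other scales are thus not separate checks of direction, and a difference negative without quantile normalization stays negative with centring. Of the 1065 higher calls, 660 were also called on both other scales, 39 had the opposite sign without quantile normalization and 127 with centring. With the ACTB ratio of each array added to the fit as a covariate, 94 probe sets were called higher and 71 lower. Spike-in group and the ACTB ratio went together, and their parts in the calls cannot be told apart.

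**Figure D2:**
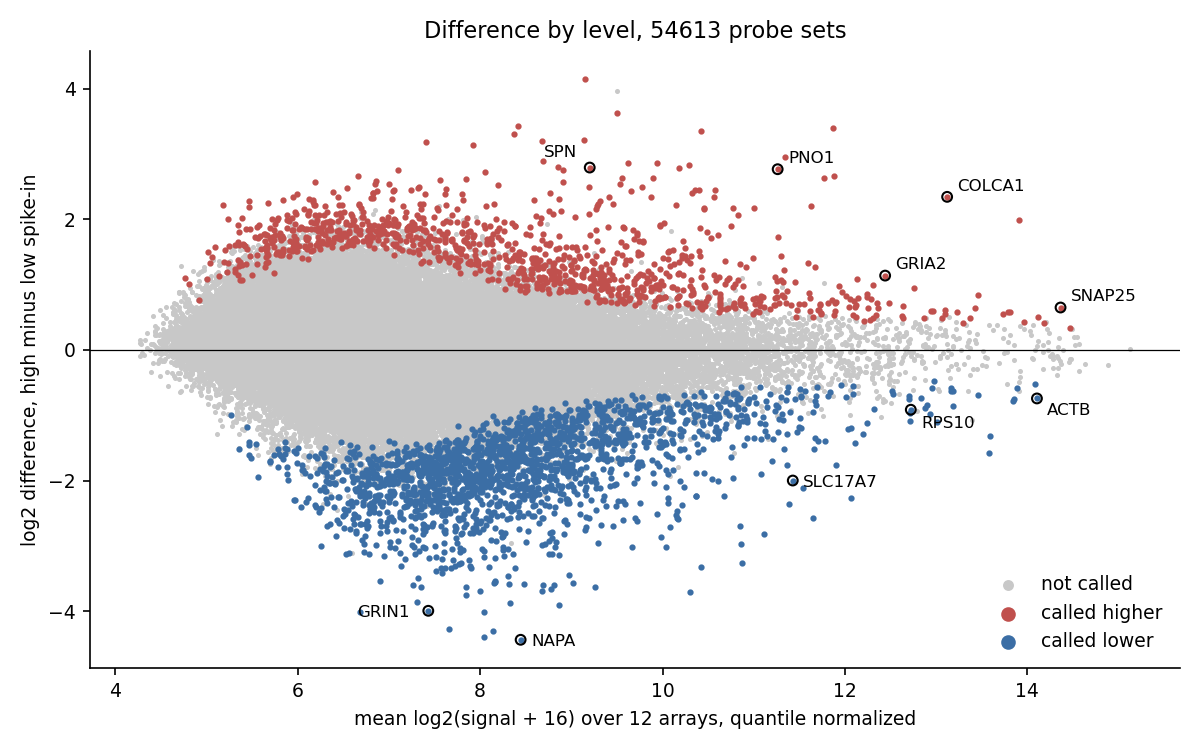
Each point is 1 probe set, with its mean log2 value over the 12 arrays on the horizontal axis and the log2 difference of high minus low spike-in arrays on the vertical axis. Probe sets called higher and lower are coloured, and the calls make up 1.95% and 3.57% of the 54613 tested.

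The kind of probe set differed between the directions. Probe sets ending in _x_at are 7.70% of all and made up 23.4% of those called higher, and 5.92% of the 4207 tested were called higher and 4.94% lower. Those ending in _s_at are 20.7% of all and made up 44.8% of those called lower, and 7.74% of them were called lower and 1.12% higher. Of the plain _at probe sets, 1.76% were called higher and 2.20% lower. Probe sets without a gene symbol were 28.1% of the higher calls, 6.51% of the lower calls and 21.5% of all. Calls were also more frequent among bright probe sets. At a mean log2 value over 10, 8.03% were called higher and 9.09% lower, and under 6 it was 1.02% and 0.260%.

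The 10 named genes with the smallest p among the higher calls were all measured by an _x_at probe set. They were COLCA1, TRIM4 (a ubiquitin ligase), PNO1 (a factor of ribosome assembly), ZNF445 (a zinc finger protein), RECK (an inhibitor of matrix metalloproteinases), SPN (the leukocyte surface protein CD43), CDC5L and CPSF2 (factors of splicing and of mRNA 3' end formation), SLC35D4 and the noncoding CTBP1-DT. COLCA1 had signals of 14978 to 24222 (median 19322) in the high arrays and of 3715 to 6101 (median 5176) in the low arrays, a log2 difference of 2.34 (SE 0.16, adjusted p = 4.53e-06). SPN had 999 to 1547 (median 1228) and 143 to 274 (median 196), a difference of 2.79 (SE 0.23). PNO1 had 3383 to 7010.1 (median 4435) and 680.2 to 1374 (median 1240.1), a difference of 2.77 (SE 0.22). The groups were far apart in all of these genes, and each was also called higher on both other scales and with the ACTB ratio as covariate. Other probe sets of the same genes mostly did not follow. Of 2 probe sets of COLCA1, 4 of TRIM4, 5 of RECK and 4 of CDC5L only the named probe set was called. For PNO1 and CPSF2 another probe set was called lower, at −1.51 and −2.09. SPN had 3 of 5 probe sets called higher and SLC35D4 2 of 2.

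Among the lower calls the named gene with the smallest p was GRIN1. GRIN1, the obligatory subunit of NMDA receptors, had signals of 29.1 to 44.6 (median 32.1) in the high arrays and of 561.5 to 768.1 (median 705.4) in the low arrays, a log2 difference of −3.99 (SE 0.33, adjusted p = 7.55e-06). GABRD, the δ subunit of GABA-A receptors, had 31.4 to 133.8 (median 54.2) and 535.5 to 1218 (median 914.9), a difference of −3.75 (SE 0.35). NAPA, which takes SNARE complexes apart after vesicle fusion, had 38.3 to 130.0 (median 62.7) and 640.0 to 2929 (median 2348), a difference of −4.44 (SE 0.42). These probe sets were dim in the high arrays and well measured in every low array. DLGAP3, a scaffold of the postsynaptic density (−3.34), EFNB3, a ligand of Eph receptors (−3.07), and NCDN, the neuronal protein neurochondrin (−4.28), went the same way without overlap. So did SNX17 (endosomal sorting, −3.07), WARS1 (a tRNA synthetase, −3.10), VRK3 (a nuclear member of the VRK family, −3.55) and PSMD8 (a proteasome subunit, −3.63). All 10 were also called lower on both other scales and with the ACTB ratio as covariate. With replicate number as a further term, however, 1 of all 59 named lower calls and 10 of all 31 named higher calls were kept. Replicate number went in part with the groups, as all arrays numbered 1 were high and all numbered 4 were low. In GRIN1, 4 of 5 probe sets were called lower and the highest difference of the 5 was −0.61. In GABRD, EFNB3 and VRK3 only the named probe set of 2, 2 and 6 was called.

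Bright genes with lower values included ACTB itself outside the control rows. Its probe set 200801_x_at had 8853 to 12811 (median 11572) in the high arrays and 19283 to 30863 (median 24035) in the low arrays, a log2 difference of −0.74 (SE 0.09, adjusted p = 0.00036), and all 3 of its probe sets were called lower. SLC17A7, the vesicular glutamate transporter of cortical excitatory neurons, had 838 to 1629 (median 1287) and 5077 to 9204 (median 6870), a difference of −1.998 (SE 0.25), while its other probe set, at −0.36, was not called. RGS4, which shortens signalling by G proteins, had 402.8 to 925.2 (median 628.6) and 2849 to 7351 (median 4920), a difference of −2.24 (SE 0.30), with 1 of 3 probe sets called. The groups did not overlap in any of these. GABBR1, a subunit of the GABA-B receptor (−1.39), UQCRC1 of respiratory complex III (−1.64), PLPPR2 (−2.57), DESI1 (−2.04), DDN, the postsynaptic protein dendrin (−1.31), BBLN (−2.11) and AP2S1, a subunit of the clathrin adaptor (−1.13), made up the rest of this set. All of them were also called lower on both other scales. With the ACTB ratio as covariate 4 of the 10 (ACTB, UQCRC1, PLPPR2 and DESI1) were still called, PLPPR2 stood at −1.30 and SLC17A7 at −1.28 (adjusted p = 0.0674). The members of both sets were picked by their p, so their sizes describe the most extreme probe sets and not the typical one.

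**Figure D3:**
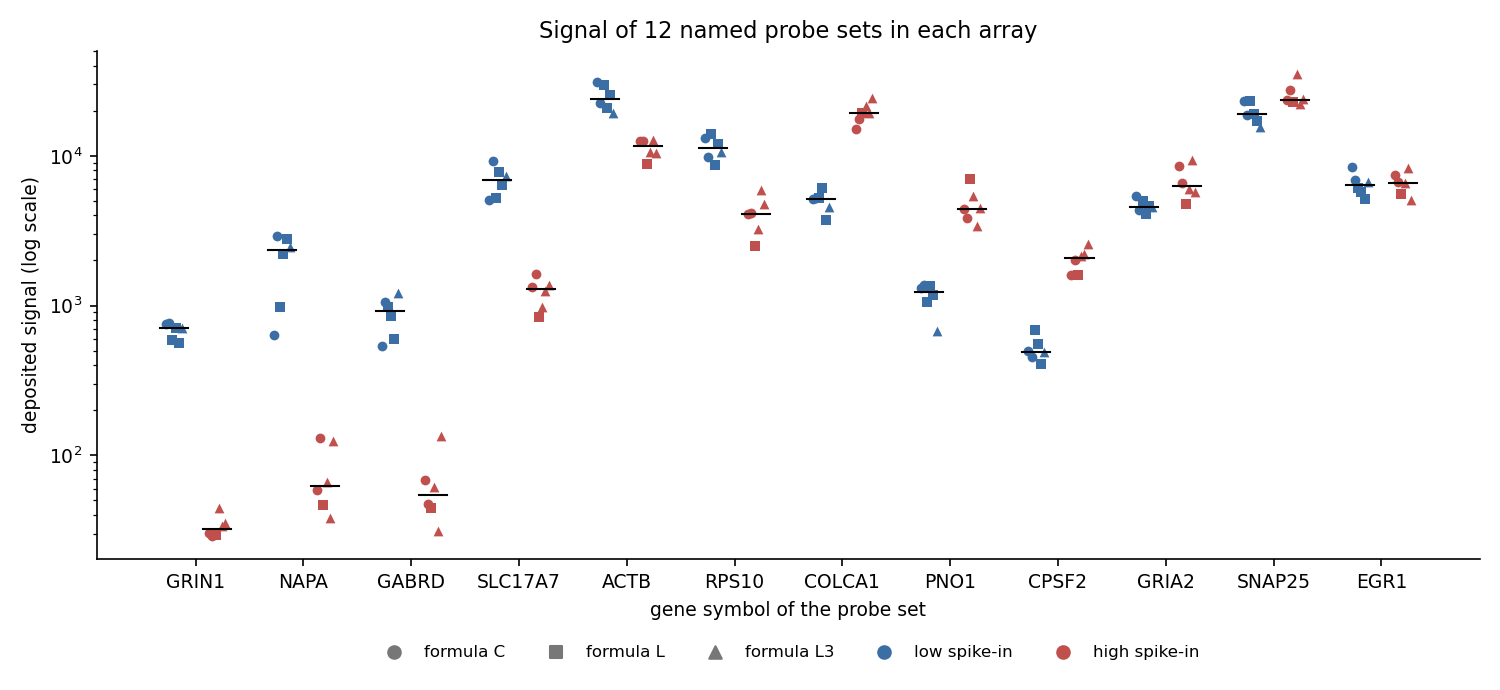
Deposited signals of 12 named probe sets are plotted on a log axis, with 1 point per array, colour for the spike-in group, marker shape for the formula and a bar for the group median. GRIN1, NAPA and SLC17A7 lie lower in all 6 high spike-in arrays, COLCA1 and PNO1 lie higher in all 6, and EGR1 and SNAP25 overlap.

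Probe sets of the same gene could go opposite ways. Of 10523 genes with 2 or more probe sets, 565 had at least 1 called higher, 1204 had at least 1 called lower, and 52 had both. In 43 of these 52 genes the probe set called lower was the dimmer by its mean log2 value over all arrays. That mean includes the high arrays, whose lower values made the call, so this count is in part built into the calls. The genes named here were chosen after their values were seen. ENSA, an inhibitor of protein phosphatase 2A in mitosis, had 0.80 (SE 0.16) for its bright 202596_at and −3.69 (SE 0.51) and −3.10 (SE 0.76) for 221487_s_at and 228851_s_at. NRXN3, a presynaptic adhesion protein, had 0.73 (SE 0.17) for 229649_at and −3.02 (SE 0.40) for 215020_at. CDK5R1, the neuronal activator of the kinase CDK5, had 0.72 and −2.80. The cannabinoid receptor CNR1 had 0.69 and −2.26. In each of these the lower value was the larger change and came from the probe set with the lower mean level. The larger change itself brings that mean down, and the smaller changes could be called only at a small SE. The order of sizes and levels is thus partly set by how these genes were chosen. The directions of the bright probe sets depended on the scale. Of the 52 genes, the probe set called higher stayed above 0 in 46 and was called in 25 without quantile normalization, and it stayed above 0 in 32 and was called in 14 with centring. Where in each transcript these probe sets lie was not determined.

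**Figure D4:**
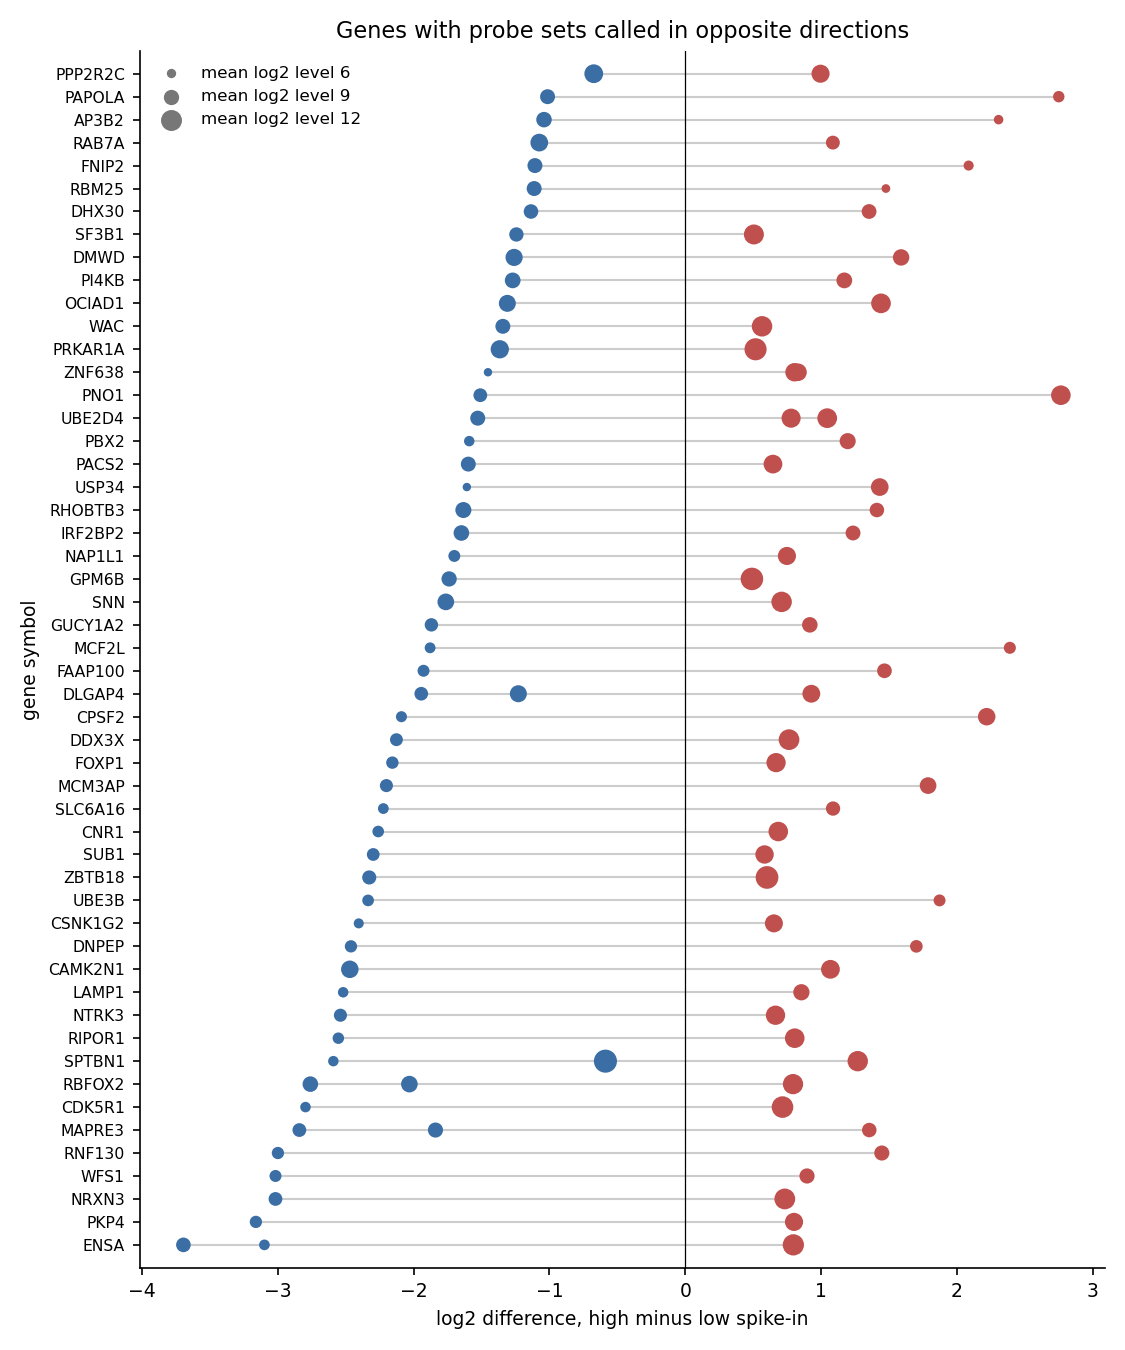
For the 52 genes with probe sets called in opposite directions, each point gives the log2 difference of 1 probe set (high minus low spike-in arrays), and a larger point marks a higher mean log2 level. In ENSA the large point lies at 0.80 and the smaller points at −3.69 and −3.10.

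Gene lists were described by 1 probe set per gene, the brightest, and are to be read against all genes taken the same way. That baseline is not matched to a list by level. At a mean log2 value over 10, 8.03% of probe sets were called higher and 9.09% lower, against 1.02% and 0.260% under 6. Summed signals and medians on the other scales also keep the difference in shape between the arrays, which touches bright genes most. Of 19775 genes, 473 (2.39%) were called higher and 791 (4.00%) lower, with a median log2 difference of 0.005. Counts of list members below are by that probe set unless another is named, and with all probe sets of a gene counted, 703 genes (3.55%) had at least 1 called higher and 1564 (7.91%) at least 1 called lower. Of 90 named probe sets that were called, 44 kept the call whichever array was left out, and without L replicate 1 the call was lost by 17 of 31 higher and 28 of 59 lower. In bulk tissue, fewer cells of a type and less RNA per cell cannot be told apart. The median of all probe sets shifts by scale as given above, and list medians on the other scales are given relative to that shift. They are therefore the same value on both.

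Genes of the synapse had calls in both directions. Of 23 measured genes of synaptic vesicles and the SNARE machinery, 2 were called higher and 5 lower, with a median of −0.34, and of −1.08 on both other scales. SNCB, β-synuclein of presynaptic terminals, had 106.8 to 913.4 (median 521.0) in the high arrays and 2861 to 4586 (median 3439) in the low arrays, a difference of −2.59 (SE 0.41, adjusted p = 0.00218). CPLX1, complexin 1, which binds SNARE complexes, had 1044 to 1773 (median 1095) and 3027 to 4572 (median 3974), a difference of −1.12 (SE 0.19). Neither overlapped between the groups. SNAP25, a SNARE protein of the plasma membrane, was called higher at 0.65 (SE 0.12). Its signals overlapped, at 22012 to 35237 and 15482 to 23388. It was at 0.41 and 0.02 on the other scales, where it was not called. Its other probe sets, at 0.49 and −0.41, were not called either. SYT4, a synaptotagmin, was called higher at 0.72 and stood at 0.02 without quantile normalization and at −0.37 with centring. Counting all probe sets, 8 of the 23 genes had at least 1 called lower and 2 at least 1 called higher.

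Receptor subunits were mixed. Of 10 AMPA and NMDA receptor genes, 1 was called higher and 0 lower by the brightest probe set, with a median of −0.42 and of −0.69 on the other scales. GRIA2, the AMPA receptor subunit that limits calcium entry, was the 1 called, at 1.14 (SE 0.12, adjusted p = 8.66e-05). Its deposited signals were 4795 to 9362 (median 6281) and 4109 to 5414 (median 4563) and overlapped, while its normalized values did not. Of its 3 probe sets 2 were called. It was at 0.46 (adjusted p = 0.133) without quantile normalization and at 0.07 with centring. The brightest probe set of GRIN1 was not called, so the list does not count the lower values of its other probe sets, and counting all probe sets 2 of the 10 genes had at least 1 called lower. Of 9 GABA-A receptor genes only GABRD was called by the brightest probe set, lower. The median of the 9 was 0.08 and turned to −0.61 on the other scales. By any probe set, 2 of the 9 were called lower and 0 higher.

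Among markers of excitatory neurons, of 7 measured, 0 were called higher and 2 lower, SLC17A7 and NRGN (neurogranin, a calmodulin-binding protein of dendrites). NRGN had 2663 to 6992 (median 4671) and 10480.3 to 17618 (median 12944), a difference of −0.98 (SE 0.21, adjusted p = 0.0139). The summed signal of the 7 was 9475 to 15369 in the high arrays and 26965 to 33068 in the low arrays, without overlap. That sum weighs bright members most and includes SLC17A7 and NRGN, so it is not separate from their calls. The median difference was −0.84, and −1.20 on the other scales. Of the 35 lists, 12 had a summed signal that lay lower in every high array, among them microglia markers (3742 to 5200 against 6232 to 9360) and oligodendrocyte precursor markers (3283 to 5132 against 5560 to 7749), and 2 one that lay higher. Of 15 general neuron markers 2 were called higher and 2 lower. INA, a neurofilament-like protein, was at −0.67 and UCHL1, a neuronal deubiquitinase, at −0.58. The RNA-binding ELAVL4, called higher at 0.72, turned to −0.33 with centring. Of its 4 probe sets 1 was called, and the lowest stood at −0.76. The median of the 15 was −0.06, and −0.97 on the other scales, and their summed signal overlapped, at 85480 to 121236 and 114754 to 176486. Of 13 interneuron markers, the parvalbumin gene PVALB (−1.09) and the GABA transporter gene SLC32A1 (−0.998) were called lower, and the neuropeptide gene NPY was called higher at 0.73 and turned to −0.19 with centring. In the 12 fits that each left out 1 array, ELAVL4 and PVALB kept the call in 4, SLC32A1 in 5 and NPY in 2.

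Among glial markers, astrocyte genes had calls in both directions. Of 12 astrocyte markers, 2 were called higher and 4 lower, with a median of −0.01, and of −0.72 on the other scales. By any probe set, 7 of the 12 (58.3%) were called lower and 2 (16.7%) higher, against 7.91% and 3.55% of all genes. SOX9, a transcription factor of astrocytes, had 359.1 to 1023 (median 663.7) and 1065 to 2318 (median 1854), a difference of −1.44 (SE 0.27, adjusted p = 0.00568). The calcium-binding S100B had 52.9 to 499.3 (median 342.8) and 687.0 to 1009 (median 745.3), a difference of −1.95 (SE 0.38). In both, another probe set of the gene was not called and stood above 0, at 0.39 and 0.42. Without L replicate 1 both lost the call, SOX9 at −1.16 and S100B at −1.24. The glutamate transporters SLC1A2 and SLC1A3 were called higher at 0.51 and 0.75, with overlapping signals, and turned to −0.22 and −0.38 with centring. SLC1A3 kept the call in 3 of the 12 fits that left out 1 array. Of 6 probe sets of SLC1A2, which ran from −1.29 to 0.73, only 1 was called. Of 13 microglia markers 1 was called higher and 1 lower. The growth factor receptor gene CSF1R was at −1.40 (SE 0.38), and TREM2, a lipid receptor, at 1.84 (SE 0.51) with signals of 35.1 to 357.5 and 16.7 to 69.6. TREM2 kept the call in 1 and CSF1R in 4 of the 12 fits that left out 1 array. The median of the 13 was −0.82, and −1.004 on the other scales. Of 8 markers of oligodendrocyte precursors only CSPG4 was called, at −1.68, and it kept the call in 4 of those fits. None of 13 endothelial and pericyte, 12 meningeal and matrix, and 8 blood cell markers was called by any probe set. None of 12 oligodendrocyte markers was called by the brightest, and 3 had another probe set called lower.

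In energy metabolism most genes were not called, and the calls by the brightest probe set were lower with 1 exception. Of 16 glycolysis enzymes, 0 were called higher and 5 (31.2%) lower, and 1 of 16 had a difference above 0. PKM, pyruvate kinase, had 732 to 1013 (median 889) in the high arrays and 1910.1 to 3739 (median 2274) in the low arrays, a difference of −1.01 (SE 0.17, adjusted p = 0.00345). ALDOA, aldolase, had 816 to 4497 (median 3053) and 6943 to 10258 (median 8209), a difference of −1.43 (SE 0.27). The groups were apart in deposited signal for both genes, while the normalized values of ALDOA overlapped. The list's median was −0.41, and −1.37 on the other scales. Counting all probe sets, 8 of the 16 had at least 1 called lower and none had 1 called higher. Of 33 subunits of respiratory complex I, 0 were called higher and 9 (27.3%) lower, with a median of −0.46, and of −1.22 on the other scales. NDUFA7 (−2.80) and NDUFS7 (−1.36) had the smallest p. Counting all probe sets, 10 of these 33 genes had at least 1 called lower and 1 had 1 called higher. Of 33 subunits of complexes III, IV and V, 6 were called lower, among them UQCRC1 and ATP5MC2 (−1.25), and 14 had a difference above 0, with a median of −0.15, and of −0.87 on the other scales. The exception was COX6C of complex IV, called higher at 1.17 (SE 0.22), at 0.74 without quantile normalization (adjusted p = 0.0376), and at 0.35 and not called with centring. Of 16 subunits of the vesicle proton pump (V-ATPase), ATP6V0C (−0.85) and ATP6V0D1 (−0.98) were called lower and none higher, and the median was −0.38, and −1.06 on the other scales. Without L replicate 1 there were 1 lower call among the glycolysis enzymes and 2 in complex I.

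Of 52 ribosomal protein genes measured, 0 were called higher and 9 (17.3%) lower, and 18 had a difference above 0. Their median was −0.15, and −1.13 on the other scales, and 15 of the 52 were measured by an _x_at probe set. Over the 30 genes with an _at probe set, taking only those, 4 were called lower and the median turned to 0.09. RPS10 had 2510 to 5879 (median 4113) and 8622 to 13893 (median 11349), a difference of −0.91 (SE 0.15, adjusted p = 0.00263), with 3 of 4 probe sets called. RPS15A was at −1.11 (SE 0.20). Of 28 translation factors, 4 were called lower and 0 higher, with EIF4G1, the scaffold of the cap-binding complex, at −1.26 and EIF3I at −0.84. Of 7 subunits of the chaperonin CCT, which folds actin and tubulin, CCT5 (−2.17) and CCT7 (−1.64) were called lower. Of 29 proteasome subunits, 3 were called lower, among them PSMD8 and PSMB3 (−0.81), and PSMB2 was called higher at 2.07 by an _x_at probe set, the only 1 of its 4 that was called. Among 16 heat shock genes only HSPB1 was called by the brightest probe set, at −2.77 (SE 0.38). The medians of the last 4 lists lay between −0.35 and −0.13, and between −0.96 and −0.80 on the other scales. Without L replicate 1, 1 ribosomal protein gene was called lower.

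**Figure D5:**
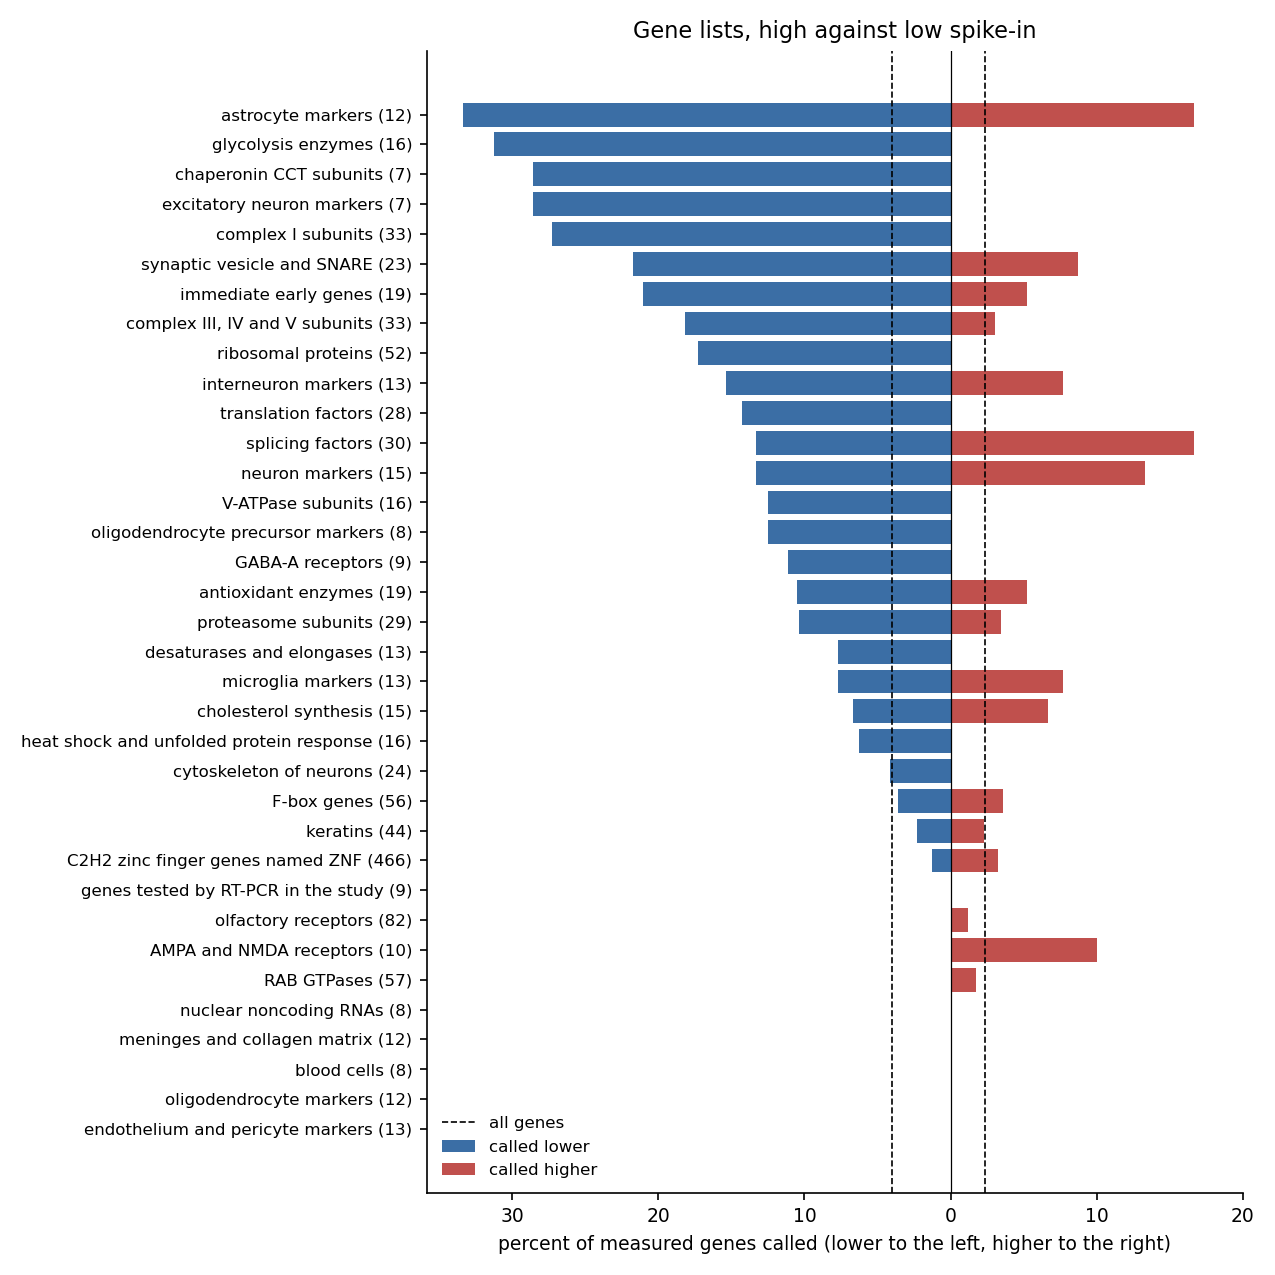
For each gene list, with its number of measured genes in brackets, bars to the left give the percent called lower and bars to the right the percent called higher in the high spike-in arrays, and dashed lines mark the 4.00% and 2.39% of all genes. Glycolysis enzymes (31.2%) and complex I subunits (27.3%) have lower calls and no higher calls. The dashed lines are not matched to the lists by level.

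Genes of RNA processing went both ways. Of 30 splicing factors, 5 were called higher and 4 lower, with a median of −0.02, and of −0.60 on the other scales. HNRNPH1, a regulator of exon choice, was called higher at 1.32 (SE 0.21, adjusted p = 0.00192). Its deposited signals of 1848 to 2885 (median 2329) and 978.8 to 2372 (median 1163) overlapped, while its normalized values did not. PRPF8, the core protein of the spliceosome, had 267.3 to 512.8 (median 361.9) and 662.5 to 1013 (median 814.4), a difference of −1.19 (SE 0.23). HNRNPH1 and SRSF6 (0.97) lost their calls on both other scales, and PRPF8 and HNRNPC (−0.64) kept theirs. Only 1 of 4 probe sets of HNRNPH1, 1 of 2 of SRSF6 and 1 of 7 of HNRNPC was called. Those of HNRNPH1 ran from −1.50 to 1.32 and those of HNRNPC from −1.44 to 0.67. The other probe set of SRSF6 stood at −0.77. None of 8 nuclear noncoding RNAs was called by the brightest probe set.

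Immediate early genes, which neurons switch on within minutes of stimulation, had 4 lower calls and 1 higher among 19. FOS had 21.4 to 104.5 (median 82.5) in the high arrays and 129.8 to 603.4 (median 377.6) in the low arrays, a difference of −2.67 (SE 0.40, adjusted p = 0.00156). JUNB had 39.3 to 583.2 (median 60.1) and 599.2 to 949.2 (median 685.6), a difference of −3.17 (SE 0.51). The higher call was EGR1 at 0.67 (SE 0.14), whose deposited signals overlapped almost fully, at 5090 to 8307 and 5109 to 8357. Its normalized values did not overlap. It turned to −0.06 without quantile normalization and to −0.44 with centring. Of the 3 probe sets of EGR1 1 was called, and the lowest stood at −0.90. The median of the 19 was −0.21, and −0.68 on the other scales. By any probe set, 7 of the 19 were called lower and 1 higher.

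In large families few genes were called by the brightest probe set. Of 466 zinc finger genes named ZNF, 15 (3.22%) were called higher and 6 (1.29%) lower, with a median of 0.07, and of −0.03 on the other scales. The share called lower was under the 4.00% of all genes. ZNF747 was at 1.67, and ZNF653 and ZNF593 were at −2.40 and −2.37. Of 56 F-box genes, 2 were called higher (FBXO43 at 1.99 and FBXL12 at 0.96) and 2 lower (FBXO33 at −1.96 and FBXL15 at −1.68). Of 57 RAB GTPases only RAB5A was called by the brightest probe set, higher at 0.65. It turned to −0.07 and −0.45 on the other scales. Its other probe sets, at −0.87 and 0.66, were not called. By any probe set, 8 of the 57 RAB genes (14.0%) were called lower and 3 (5.26%) higher, against 7.91% and 3.55% of all genes. Of the 56 F-box genes, 7 had at least 1 called lower and 3 at least 1 called higher. Of 82 olfactory receptors OR5H1 was called, at 1.64. Of 44 keratins, KRT23 (1.50) and KRT222 (−1.30) were called. OR5H1 kept the call in 2, KRT222 in 3, FBXL12 in 6 and FBXO43, FBXL15 and KRT23 in 8 of the 12 fits that left out 1 array.

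Genes of lipid metabolism, the subject of the diets, were called in both directions. Of 15 genes of cholesterol synthesis, HMGCS1, which makes the precursor of mevalonate, was called higher at 0.81 and turned to −0.05 with centring, and TM7SF2, a sterol reductase, was called lower at −1.82 (SE 0.50) and kept the call in 3 of the 12 fits that left out 1 array. Of 13 desaturases and elongases only TECR, the last enzyme of the elongation cycle, was called by its brightest probe set. It had 58.5 to 393.2 (median 307.9) and 750.6 to 1134 (median 890.6), a difference of −1.84 (SE 0.40, adjusted p = 0.0136), and its other probe set stood at 0.60. Counting all probe sets, 1 of the 13 genes had at least 1 called higher and 3 at least 1 called lower. Chosen after their values were seen, the others were SCD5, a desaturase, at 2.45 (SE 0.25), while its brightest probe set stood at 0.28, FADS3, a member of the desaturase family, at −2.36 (SE 0.41), against −0.01, and HACD3, a dehydratase of elongation, at −2.003 (SE 0.34), against −0.11. Of 19 antioxidant genes, HMOX2 (−1.28) and PRDX6 (−1.62) were called lower and TXN, thioredoxin, was called higher at 0.72 and turned to −0.21 with centring. The other probe sets of TXN and PRDX6, at −1.06 and 0.31, were not called. PRDX6 kept the call in 6 of the 12 fits that left out 1 array, and without L replicate 1 it stood at −0.74. Of 24 cytoskeletal genes only ACTB was called by the brightest probe set, and the median of 0.18 turned to −0.62 on the other scales. By any probe set, 4 of the 24 were called lower and 0 higher.

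The study's own lists of probe sets that differed by formula were chosen on these arrays, so they are no independent evidence. Of the 666 listed as up in L3, 8 (1.20%) were called higher and 1 (0.150%) lower in the high spike-in arrays. Of 440 listed as down in L3, 1 (0.227%) was called higher and 10 (2.27%) lower. All 4 shares lay under the 1.95% and 3.57% of all probe sets, in a fit that held formula as a covariate. Of the 71 listed with a change of 1.4-fold or more, 3 (4.23%) were called higher and 1 (1.41%) lower. Among those called were BAD, which promotes cell death (−2.80), the transcription kinase CDK9 (−1.83) and the ubiquitin ligase gene FBXO45 (−1.74), all lower, and WNT8A, a Wnt ligand (1.52), and SMARCE1, a chromatin remodeller subunit (1.72), both higher. With a spike-in term in the fit, 1932 probe sets had an unadjusted p under 0.05 for L against C, and 1324 without it. For L3 against C there were 2560 with the term and 2329 without. None passed adjustment in any of these limma fits. Since the high arrays held 3 animals fed L3 and 1 fed L, spike-in group and formula overlapped in part.

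Some genes of those lists were also measured by RT-PCR in the study. None of the 7 whose listed probe sets could be named was called. ZNF611 had 824.2 to 1770 (median 1047) in the high arrays and 618.0 to 1059 (median 760.3) in the low arrays, a difference of 0.79 (SE 0.23, adjusted p = 0.0592). TIMM8A, a chaperone of mitochondrial import, had 34.1 to 297.1 (median 201.1) and 5.1 to 91.4 (median 55.9), a difference of 1.22 (SE 0.40, adjusted p = 0.0914). These came nearest to the threshold, with overlapping signals, and TIMM8A was called without quantile normalization, at 1.54 (adjusted p = 0.0271). The other probe set of TIMM8A, which is brighter, stood at −0.95 and was not called. UCP2, a mitochondrial carrier, was at −0.68 (SE 0.42, adjusted p = 0.385) and the aminophospholipid transporter gene ATP8B1 at −0.38 (SE 0.24, adjusted p = 0.402). With centring ATP8B1 was called lower, at −0.73 (adjusted p = 0.0483). The Wnt receptor gene FZD3 was at −0.23 (SE 0.26), the matrix gene LUM at 0.30 (SE 0.40) and the protease gene ADAM17 at 0.13 (SE 0.35), each smaller than its SE. Another probe set of ADAM17 stood at −1.02 (SE 0.47) and was not called. The probe sets listed for NF1 and EGFR had no single matching symbol in the annotation used and are not described. Another probe set of EGFR was called lower, at −1.58 (SE 0.32).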

How the data were processed

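RNA of 12 animals was measured on 12 arrays. The authors deposited MAS5 signals from GCOS, an intensity on a linear scale, with each array scaled to a common trimmed mean of about 250 (250.009 to 250.024 with 2% trimmed at either end). The paper's methods describe RMA, which these are not. Probe-level files were not read. Here 62 control probe sets were left out of 54675, signals plus 16 were put on a log2 scale and the arrays quantile normalized. Limma 3.58.1 (R 4.3.3) fitted formula and spike-in group over all 12 arrays with 8 residual degrees of freedom and a variance trend, with Benjamini-Hochberg adjustment over 54613 probe sets. A probe set is called at an adjusted p under 0.05. The fit was tested on simulated data. Ratios of control segments were compared by an exact permutation test, with p-values adjusted over 3 ratios, of which 1 is not reported here. Figures used matplotlib 3.10.9. By the platform annotation 41091 probe sets have 1 symbol, 1801 several and 11721 none.

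Named genes were, in each direction, the 10 smallest p among probe sets with 1 symbol, the same at a mean log2 value of at least 9, up to 2 called members of each gene list per direction, and the RT-PCR genes of the study. The spike-in groups and the lists were chosen with earlier results of these data known. Each animal is a separate sample, and their number limits the precision. Alternatives changed the normalization, pseudocount, filter, variance trend, covariates and arrays used.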

Additional observations from a re-analysis of the deposited data

Results flagged for a closer look

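Of 208 sets of 6 values looked at, 14 had an array that stood far from the other 5, by a gap over Dixon's critical value; chance gives about 1 in 20. L replicate 1, the only high spike-in array fed L, stood apart in CTBP1-DT (log2 value 11.38, others 9.90 to 10.28), EFNB3 (5.61, others 6.33 to 6.65), CCT5 (5.99, others 7.55 to 8.28), RPS15A (9.55, others 10.44 to 10.96) and PRDX6 (6.31, others 8.79 to 10.09). L3 replicate 1 stood low in SNCB (6.79, others 8.93 to 10.07), L3 replicate 2 high in FBXO33 (9.47, others 7.02 to 7.82), and L3 replicate 3 low in NPY (10.14, others 10.91 to 11.36) and TREM2 (5.62, others 7.40 to 8.36). Among low spike-in arrays, L3 replicate 4 stood low in CTBP1-DT (7.47, others 8.09 to 8.45), L replicate 3 low in PSMD8 (8.91, others 9.55 to 9.82) and high in ZNF747 (10.10, others 9.19 to 9.52), C replicate 4 high in SNCB (11.91, others 11.26 to 11.47), and L replicate 2 low in COX6C (9.09, others 9.60 to 9.89).

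For 5 probe sets the difference between spike-in groups itself differed by formula (limma interaction of formula and spike-in group; 3972 at an unadjusted p under 0.05). For 211601_at, without a symbol, the log2 difference was 0.25 within C, 3.87 within L and −0.16 within L3 (adjusted p = 0.0429). For ABAT, which breaks down GABA, it was −0.02, −4.68 and 0.30 (0.0429), for PCGF5 0.47, −4.29 and 0.17 (0.0429), for PRRC2B 0.20, −2.94 and −0.25 (0.0429), and for the nuclear exporter XPO1 0.43, −3.44 and 0.10 (0.0463). Each value within L rests on 1 high array, L replicate 1.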

How the results depend on the processing

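Counts of higher and lower calls were 1536 and 2492 without the formula term, 2580 and 2918 without further normalization, 812 and 6152 after centring arrays on their medians, 1012 and 1783 with a pseudocount of 1, 1001 and 2143 among the brighter 27306 probe sets, 698 and 1225 without the variance trend, 774 and 1544 with sex as a covariate, 362 and 635 in females only, 94 and 71 with the ACTB ratio as a covariate, 472 and 913 with the spike-in value as a continuous term, and 704 and 1511 without the 2 arrays beside the dividing line. With only _at probe sets fitted anew, chosen after seeing the data, they were 485 and 677. Leaving out 1 array at a time gave 207 to 1271 and 390 to 2316. Deviations from the fit showed no pairing by replicate number (mean correlation −0.10, 0.05, −0.04 and −0.12 for numbers 1 to 4). Of 12 arrays, 3 correlated best with an array of their own number. The fit held the spike-in group, and all arrays numbered 1 were high and all numbered 4 were low. An effect of number that follows the groups was thus removed before this check, which cannot show it. With the replicate block 34 and 5 were called. The share of _x_at among higher calls was 18.6% without the formula term, 13.4% without further normalization, 26.6% with sex, 39.0% in females, 51.1% with the ACTB ratio, 33.1% with the continuous term, 28.6% without the boundary arrays and 79.4% with the block. Calls in the study's lists, 9 and 11, became 20 and 17 without the formula term, 36 and 11 without further normalization, 7 and 38 centred, 4 and 4 in females, 0 and 1 with the ACTB ratio, 5 and 5 continuous, 0 and 0 with the block, 3 and 6 for _at only, and 3 to 13 and 2 to 15 leaving out 1 array. The 3'/5' differences leaving out 1 array were 2.24 to 3.10 for ACTB and 1.10 to 1.53 for GAPDH, and GAPDH was at 1.25 in females (adjusted exact permutation p = 0.0714). Signs turned for EGR1 (−0.057 without further normalization, −0.44 centred), RAB5A (−0.067, −0.45), and, centred, for HMGCS1 (−0.051), SLC1A2 (−0.22), TXN (−0.21), SYT4 (−0.37), ELAVL4 (−0.33), NPY (−0.19) and SLC1A3 (−0.38). Among the RT-PCR genes, TIMM8A was called at 1.54 (adjusted p = 0.0271) without further normalization and ATP8B1 at −0.73 (0.0483) centred, and with the ACTB ratio and with the replicate block ATP8B1 was at 0.073 and 0.037, FZD3 at 0.147 and 0.248, and LUM at −0.037 and −0.511, and ADAM17 was at −0.130 centred and at −0.106 to 0.374 leaving out 1 array. The cause was not tested. Of the 90 named probe sets that were called, 44 kept the call whichever array was left out. Of 2194 recomputed values of these, 1700 kept their call, 483 lost it and 11 turned. Precision rests on 6 arrays a group.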
